A study of Mus musculus with 4 samples.

Results

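The semaphorin, plexin and neuropilin genes are described here in lungs of mice carrying 4T1 metastases, with and without treatment. The members are the protein-coding genes of the count table named Sema3, Sema4, Sema5, Sema6 or Sema7 with a letter, Plxn with a letter and a digit, or Nrp1 or Nrp2. They were taken by name alone and numbered 31 of 56748 genes listed: 20 semaphorins, 9 plexins and 2 neuropilins. Female BALB/cJ mice, 7 weeks of age, were injected in the tail vein with 4T1-FLuc cells, a luciferase-expressing mouse line of triple-negative breast cancer (TNBC), and treated once metastases were seen. The saline group (2 samples, called a PBS control in the labels) was compared with the ADC/cmLumiOpto group (2 samples, 3 weeks of treatment). The antibody-drug conjugate (ADC) was CD276-DM1, an anti-CD276 antibody carrying the microtubule poison mertansine, given at 16 mg/kg by the labels and at a lower dose by the study's methods. cmLumiOpto is a viral gene therapy carried in antibody-coated exosomes. It places the light-gated channel CoChR, driven by a cfos promoter, in the mitochondria of cancer cells. The labels write the treatment as cmLumi-Olap and CD276-DM1, and what Olap stands for was not given. All 4 samples share the 4T1 line and the lung. Samples with one treatment alone were not analysed here, so the effects of the ADC and of the gene therapy cannot be told apart.

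Semaphorins are secreted or membrane-bound guidance cues, first known for repelling growing axons. Plexins are their receptors, and the cytoplasmic part of a plexin acts on small GTPases and so on adhesion and the actin cytoskeleton. Class 3 semaphorins are secreted and most of them need a neuropilin as the ligand-binding partner of a plexin, while neuropilins also bind vascular endothelial growth factors. In lung and in tumors these genes are known for roles in vessel growth, branching, invasion and the movement of leukocytes.

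Reads per gene were deposited as raw counts, with 15263375 to 19675436 counts per sample. Levels are given as CPM, counts scaled to the library size after TMM normalization, and 3 counts correspond to 0.152 to 0.197 CPM, a floor for counting error only. The labels describe tumor cells, whereas the study's methods describe dissociated lung tissue. Surfactant and other alveolar epithelium markers (10 genes) summed to 1800 and 493 CPM with saline and to 6093 and 5197 CPM after treatment, so RNA of normal lung was present in every sample. Leukocyte markers (10 genes) summed to 2736 and 1822 CPM against 5456 and 3859 CPM, and endothelial markers (10 genes) to 542 and 449 CPM against 621 and 898 CPM. Fibroblast and mural markers (10 genes) summed to 5298 and 3710 CPM against 1877 and 1540.2 CPM. Carcinoma and pan-epithelial markers (8 genes) summed to 2975 and 3323 CPM against 2967 and 2898 CPM. Lymphatic endothelial markers (5 genes) summed to 102 and 69.4 CPM against 122 and 105 CPM. This sum was led by Pdpn and Lyve1. Prox1 had no more than 15 counts in any sample, and Flt4 had a log2 fold change of -0.31, the only negative one of the 5. Of the 10 neuron and Schwann cell markers, 7 had under 10 counts in every sample, Elavl4, Syt1 and Sox10 were at 0 in all of them, and the list summed to 21.1 and 14.2 CPM against 7.03 and 5.27 CPM. In bulk RNA, fewer cells of a type and less RNA per cell cannot be told apart.

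The comparison asked which guidance genes differed between the groups. The expression filter of edgeR kept 15320 genes and 30 of the 31 members. In the quasi-likelihood (QL) test of edgeR, adjusted by Benjamini-Hochberg, 0 members had an adjusted p under 0.05, and so did 0 of all genes tested (0%). At an unadjusted p under 0.05, 2 members were higher after treatment, Sema3c and Sema3g, against 11.0% of all genes tested, and 6 lower, Plxna4, Plxnb1, Sema4b, Sema5a, Sema5b and Sema6d, against 12.2%. The exact test of edgeR called Sema3c and Sema3g higher (3.96% of all genes tested) and Sema5b lower (3.68%) at an adjusted p under 0.05. DESeq2 also called Sema3c and Sema3g higher (4.16% of the genes with an adjusted p) and called 0 members lower (5.47%). Without regard to any test, both treated samples lay above both saline samples for 7 of 30 members (28.1% of all genes tested) and below them for 13 (28.8%). The median log2 fold change was -0.16 over the members and 0.028 over all genes tested, with 12 members higher and 18 lower.

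**Figure D1:**
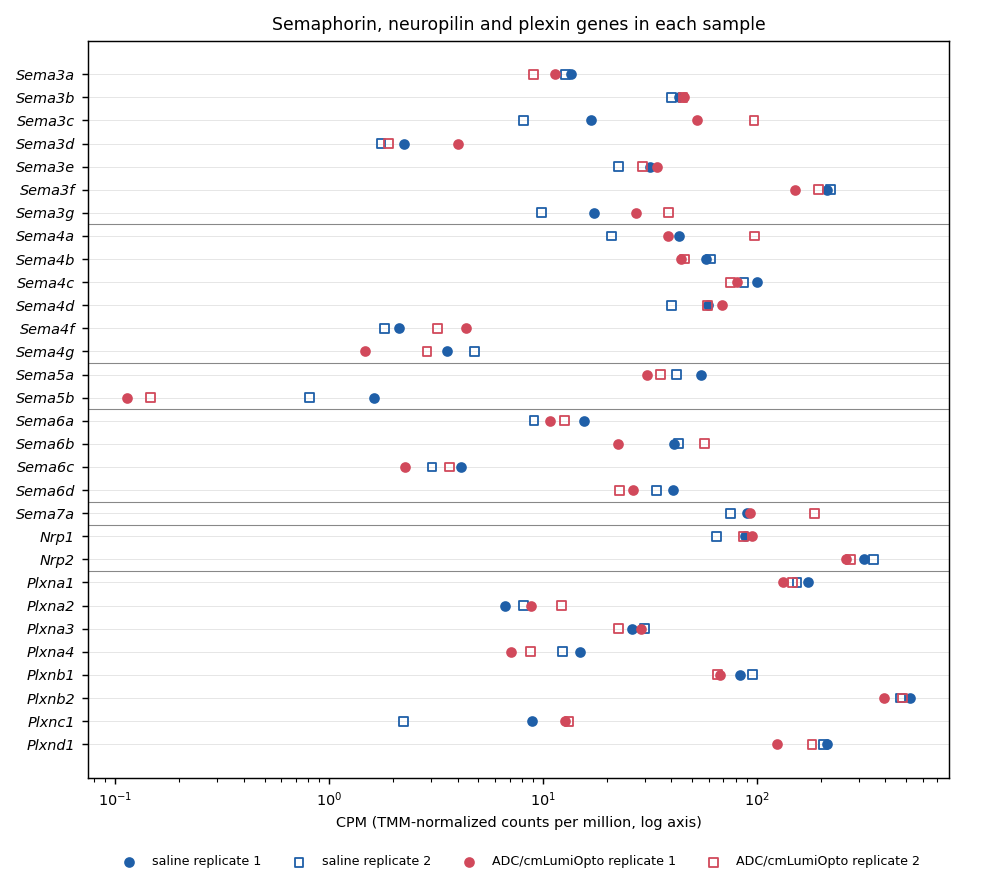
Level of each of the 30 tested members in each sample, in TMM-normalized CPM on a log axis, grouped by class. Sema3c shows the widest gap with the treated samples on the high side, at 52.7 and 97.3 CPM against 16.9 and 8.16 CPM, while Sema5b lies lowest of all genes in the treated samples.

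Among the class 3 semaphorins, Sema3c stood apart. Sema3c (ENSMUSG00000028780), a secreted ligand that binds both neuropilins and is needed for the outflow tract of the developing heart, had 16.9 and 8.16 CPM with saline and 52.7 and 97.3 CPM after treatment. In raw counts these were 270 and 121 against 929 and 1996. Of these, the lower treated sample was above the higher saline sample, and saline replicate 2 was the lowest. The log2 fold change was 2.58, with a standard error (SE) of 0.43. The edgeR QL test gave it an unadjusted p of 6.75e-04 and an adjusted p of 0.116. The adjusted p was 9.18e-06 in the edgeR exact test and 9.57e-08 in DESeq2, and it ran from 8.78e-25 to 0.324 over the alternatives run. Leaving out saline replicate 1 raised the log2 fold change to 3.20, with an edgeR QL adjusted p of 0.0201, and leaving out ADC/cmLumiOpto replicate 2 gave the lowest value, 2.07. Only 150 of the genes tested had a larger log2 fold change. The group means of Sema3c differed by a ratio of 5.99, and the sums of alveolar epithelium, leukocyte and endothelial markers by ratios of 4.92, 2.04 and 1.53. The order of the samples in Sema3c was that of the endothelial sum, but not of each gene in that list. Both treated samples lay above both saline samples for 8 of the 10 endothelial markers (28.1% of all genes tested). Cdh5 and Robo4 overlapped between the groups, with log2 fold changes of 0.017 and -0.10. Ptprc, Coro1a and Cd52 of the leukocyte list and Hopx and Sftpb of the alveolar list shared the order of Sema3c. Others did not, such as Lyz2, which led the leukocyte sum with 26991 and 16738 counts against 75850 and 50186. The part of these cell types in the difference was not tested.

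Sema3g (ENSMUSG00000021904), a class 3 semaphorin known from endothelium that signals through Nrp2, had 17.4 and 9.84 CPM with saline and 27.4 and 38.6 CPM after treatment. It followed the order of samples seen for Sema3c, with no overlap of the groups. The log2 fold change was 1.27 (SE 0.33, edgeR QL adjusted p 0.123). The edgeR exact test gave an adjusted p of 0.0174 and DESeq2 one of 0.00928. Over the alternatives with all 4 samples, the edgeR QL test gave 6.63e-05 without the expression filter and up to 0.153 with the length trend removed. The value was 1.75 without saline replicate 1 and 0.93 without saline replicate 2.

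Upstream sequence is shown for these genes because both were called higher by the exact test of edgeR and by DESeq2. RefSeq upstream windows of 250 bases (GRCm38.p6) were found for 26 of the 31 members. The GC box GGGCGG, searched on both strands, was in a window of 21 of these 26 members and in 32.7% of the 32851 windows of all genes, and TATAAA was in 0 of the 26 members and in 12.4% of all windows. The window of Sema3c held 3 matches of GGGCGG and 39 CG dinucleotides. That of Sema3g held 1 match and 8 CG dinucleotides, with a median of 6 over all windows. All windows were counted singly and outnumber the 21970 protein-coding genes listed. Members are protein-coding and were counted once per gene, if any window held the motif. The shares are therefore not like for like. For Sema3g, chr14:31217623-31217857 on the plus strand is printed, bases 250 to 16 before the RefSeq start. For Sema3c, whose RefSeq start lies 535 bases inside a longer GENCODE transcript, only 30 bases at the first match are printed, chr5:17574589-17574618 on the plus strand, 227 to 198 bases before the start. Capitals mark the GC box or its reverse complement.
Sema3g: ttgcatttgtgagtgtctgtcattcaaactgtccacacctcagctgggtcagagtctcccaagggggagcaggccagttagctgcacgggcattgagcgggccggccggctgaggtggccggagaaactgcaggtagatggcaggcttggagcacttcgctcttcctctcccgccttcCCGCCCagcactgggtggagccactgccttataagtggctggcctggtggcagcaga
Sema3c: gctccctgggtgGGGCGGcggcccgtgcag
The matches are descriptions of sequence, and binding was not measured.

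The other class 3 genes differed less between the groups. Sema3f (ENSMUSG00000034684), an Nrp2 ligand known as a brake on vessels and on tumor spread, had 214 and 222 CPM with saline and 152 and 195 CPM after treatment. Its treated samples were both lower, with a log2 fold change of -0.33 (SE 0.18, edgeR QL adjusted p 0.311). Sema3a, the axon-repelling founder of the class and an Nrp1 ligand, had a log2 fold change of -0.37 (SE 0.26), and Sema3b, which shares its chromosome region with Sema3f, one of 0.13 (SE 0.16). Sema3d and Sema3e overlapped between the groups, with log2 fold changes of 0.56 and 0.22. Sema3e is the exception of the class, since it binds Plxnd1 without a neuropilin.

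Levels of different genes were compared per length, as CPM per kb of the gene length listed with the counts. On this scale Sema3f made up 67.4% and 73.8% of the class 3 sum with saline and 51.1% and 51.3% after treatment. Sema3c made up 3.86% and 1.97% of it against 12.9% and 18.6%, and Sema3g 6.28% and 3.74% against 10.5% and 11.6%. The sum itself overlapped between the groups, at 61.2 and 58.0 CPM per kb against 57.2 and 73.2 CPM per kb. Sema3f was thus the leading class 3 transcript in every sample, with a smaller share in both treated samples.

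**Figure D2:**
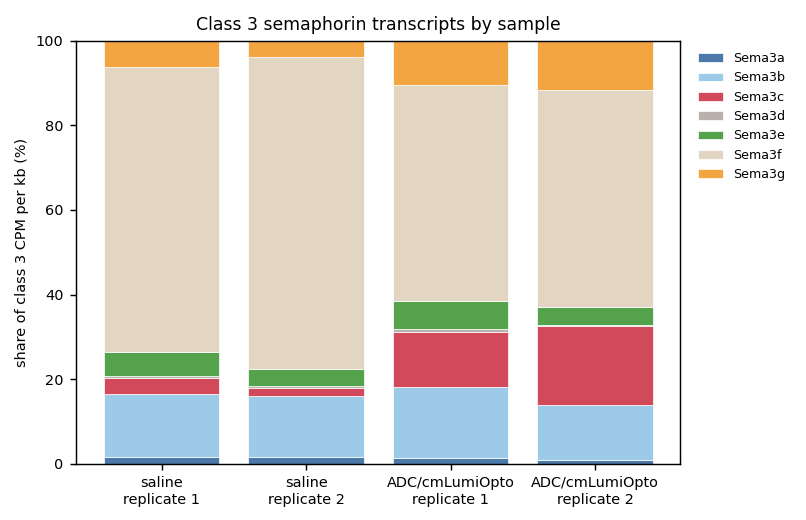
Share of each gene in the summed CPM per kb of the 7 class 3 semaphorins, one bar per sample. Sema3f takes 67.4% and 73.8% of the saline bars and 51.1% and 51.3% of the treated bars, and Sema3c takes 3.86% and 1.97% of the former and 12.9% and 18.6% of the latter.

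Class 4 semaphorins are membrane proteins, several of which act in the immune system. Sema4b (ENSMUSG00000030539) had 58.1 and 60.7 CPM with saline and 44.2 and 46.1 CPM after treatment. The replicates were close and the groups did not overlap, with a log2 fold change of -0.40 (SE 0.16, edgeR QL unadjusted p 0.0404, adjusted p 0.197). Sema4c, a ligand of Plxnb2, was also lower in both treated samples, with a log2 fold change of -0.26 (SE 0.17). Sema4a, which acts on T cells and on endothelium, had 43.5 and 21.0 CPM with saline and 38.4 and 98.2 CPM after treatment. A single treated sample was high, and the log2 fold change of 1.08 (SE 0.50, edgeR QL adjusted p 0.246) was 0.25 without ADC/cmLumiOpto replicate 2. Sema4d, the ligand of Plxnb1 also known as CD100, overlapped between the groups, with a log2 fold change of 0.36 (SE 0.23). Sema4f and Sema4g were low, at no more than 77 counts in any sample, with log2 fold changes of 0.94 and -0.93.

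Class 5 semaphorins carry thrombospondin repeats, and both were lower in both treated samples. Sema5b (ENSMUSG00000052133) had 26 and 12 counts with saline and 2 and 3 counts after treatment, so the treated samples were at or under the floor of 3 counts. The depth-scaled ratio of the summed counts, treated over saline, was 0.106, with an exact 95% interval of 0.0327 to 0.271 for counting error only. The fitted log2 fold change was -3.15 (SE 0.76, edgeR QL adjusted p 0.123). The exact test of edgeR gave an adjusted p of 0.00920, the lowest over all alternatives, whose highest was 0.356, and DESeq2 gave none for this gene. Sema5a (ENSMUSG00000022231) had 55.1 and 42.2 CPM with saline and 30.7 and 35.5 CPM after treatment. Its groups were close but did not overlap, with a log2 fold change of -0.55 (SE 0.20, edgeR QL unadjusted p 0.0287, adjusted p 0.174).

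Class 6 semaphorins are transmembrane ligands of A-type plexins. Sema6d (ENSMUSG00000027200), a Plxna1 ligand, had 40.6 and 34.1 CPM with saline and 26.3 and 22.8 CPM after treatment. The groups did not overlap, and the log2 fold change was -0.61 (SE 0.19, edgeR QL unadjusted p 0.0174, adjusted p 0.148). The order of the samples in Sema6d was that of the fibroblast and mural marker sum, which was led by Col1a1, Col1a2 and Col3a1. Other genes of the list did not share it. Pdgfra and Acta2 were higher in saline replicate 2 than in replicate 1, and Rgs5 had a log2 fold change of 1.16. The part of these cells in the difference was not tested. Sema6a, Sema6b and Sema6c overlapped between the groups, with log2 fold changes of -0.070, -0.079 and -0.27. Leaving out a sample turned the sign of Sema6a, Sema6b, Sema6c and Sema3d, with ranges of -0.39 to 0.37, -0.90 to 0.45, -0.66 to 0.038 and -0.066 to 1.00. Among class 6 genes, Sema6b had the widest gap between the treated samples, at 22.6 and 57.2 CPM against 41.3 and 43.1 CPM in the saline samples.

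Sema7a (ENSMUSG00000038264), the single class 7 gene, encodes a semaphorin tethered to the membrane by a lipid anchor that binds integrins and Plxnc1. It had 90.3 and 75.4 CPM with saline and 93.2 and 187 CPM after treatment. The treated samples were higher, one of them by little, and the log2 fold change of 0.76 (SE 0.33, edgeR QL adjusted p 0.226) was 0.17 without ADC/cmLumiOpto replicate 2. Per length it was second to Sema3f among the semaphorins in the saline samples, at 25.1 against 42.0 CPM per kb, and first after treatment, at 42.5 against 33.4 CPM per kb. This order held in ADC/cmLumiOpto replicate 2 and not in replicate 1, where Sema7a had 28.3 and Sema3f 29.2 CPM per kb.

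The neuropilins differed in opposite directions, and neither passed a test. Nrp2 (ENSMUSG00000025969), the receptor of Sema3f and of lymphatic growth factors, had 319.5 and 353 CPM with saline and 263 and 276 CPM after treatment. Both treated samples were lower, with a log2 fold change of -0.32 (SE 0.16, edgeR QL adjusted p 0.266). Nrp1 (ENSMUSG00000025810), the receptor of Sema3a and a partner of VEGF receptors, had 88.8 and 65.0 CPM with saline and 95.0 and 86.6 CPM after treatment. The groups overlapped, with a log2 fold change of 0.24 (SE 0.20). Nrp2 was the more abundant in every sample, with 74.8% and 81.8% of the neuropilin CPM per kb with saline and 69.5% and 72.5% after treatment.

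Of the 8 plexins tested, 6 had a lower and 2 a higher fitted level after treatment. Once the trend on gene length, described further on, was removed, 3 were lower and 5 higher. The 5 include Plxna1, Plxna3 and Plxnb2, whose log2 fold changes were then only 0.0022, 0.074 and 0.0026, which is little difference rather than a rise. Plxna4 (ENSMUSG00000029765), a receptor for Sema3a and class 6 ligands, had 14.9 and 12.3 CPM with saline and 7.14 and 8.78 CPM after treatment. The groups did not overlap, and the log2 fold change was -0.78 (SE 0.28, edgeR QL unadjusted p 0.0281, adjusted p 0.173). Plxnb1 (ENSMUSG00000053646), the Sema4d receptor, had 84.1 and 95.3 CPM with saline and 67.2 and 65.9 CPM after treatment. It was also lower in both treated samples, with a log2 fold change of -0.43 (SE 0.16, edgeR QL unadjusted p 0.0353, adjusted p 0.186). Plxnd1 (ENSMUSG00000030123), the vascular receptor of Sema3e, had 214 and 205 CPM with saline and 125 and 182 CPM after treatment, a log2 fold change of -0.45 (SE 0.21). It was -0.20 without ADC/cmLumiOpto replicate 1 and -0.75 without replicate 2. Plxna1 (ENSMUSG00000030084), a partner of both neuropilins, had 173 and 155 CPM against 132 and 148 CPM, a log2 fold change of -0.23 (SE 0.16). For each of these genes the treated samples were both below the saline samples.

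Plxnb2 (ENSMUSG00000036606), a receptor of class 4 semaphorins, was the most abundant plexin per length in every sample, with 50.1% to 53.6% of the plexin CPM per kb. Its levels of 523 and 469.9 CPM with saline and 395 and 480.4 CPM after treatment overlapped, with a log2 fold change of -0.18 (SE 0.18). Plxna3 (ENSMUSG00000031398), a neuropilin partner, had 26.2 and 30.0 CPM against 28.7 and 22.7 CPM, a log2 fold change of -0.13 (SE 0.21). Plxna2 (ENSMUSG00000026640), a Sema6a receptor, had 6.63 and 8.16 CPM with saline and 8.78 and 12.2 CPM after treatment. Both treated samples were higher, one of them by little, with a log2 fold change of 0.51 (SE 0.31). Plxnb3 was not tested, with 11 and 3 counts with saline and 2 and 10 after treatment.

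Plxnc1 (ENSMUSG00000074785), the Sema7a receptor found on leukocytes, had 8.88 and 2.22 CPM with saline and 12.7 and 13.3 CPM after treatment. The treated samples were close to each other and both higher, while saline replicate 2 was far below saline replicate 1. The log2 fold change was 1.22 (SE 0.58, edgeR QL adjusted p 0.259). It was 2.54 without saline replicate 1, with an edgeR QL adjusted p of 0.0432, and 0.56 without saline replicate 2. Over the alternatives with all 4 samples, the lowest adjusted p was 0.00980, in the edgeR QL test without the expression filter. The highest was 0.275, in the edgeR QL test without TMM. The leukocyte sum, led by Lyz2, was also lowest in saline replicate 2, at 1822 CPM against 2736 CPM in saline replicate 1. So were the alveolar, endothelial and lymphatic sums, at 493, 449 and 69.4 CPM against 1800, 542 and 102 CPM. The fibroblast and mural, carcinoma and neuron sums were not lowest there. Nor was every gene of the former lists. Itgam of the leukocyte list had 963 and 1569 counts with saline and 889 and 2741 after treatment. Flt4 of the lymphatic list had 14.6 CPM in saline replicate 2 and 12.9 CPM in ADC/cmLumiOpto replicate 1. The part of these cell types in Plxnc1 was not tested.

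**Figure D3:**
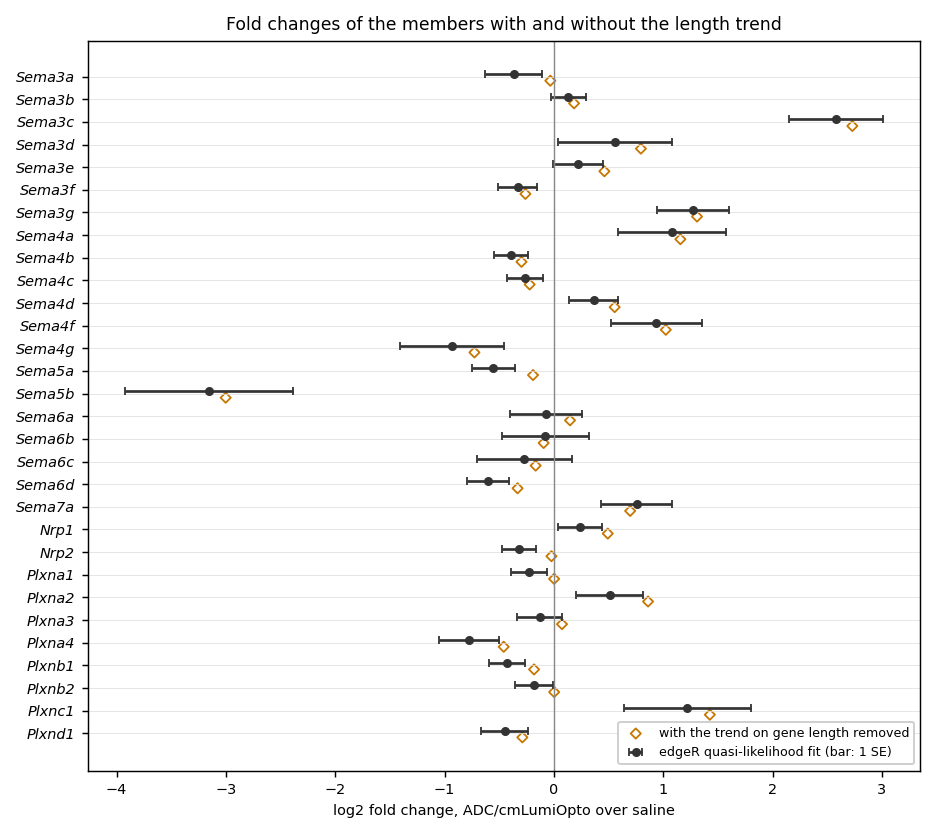
Log2 fold change of ADC/cmLumiOpto over saline for each tested member, with bars of 1 standard error from edgeR's quasi-likelihood fit. Open diamonds give the value after the trend on gene length was removed, which moved most members to the right and left Sema3c at 2.73, Sema3g at 1.31 and Sema5b at -3.00.

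Gene length moved with these differences. Across all genes tested, Spearman's rank correlation between length and log2 fold change was -0.34, a description over genes, which are not independent replicates. Members were long, with a median of 7800 bases against 4113 bases for all genes tested. After a smooth trend on length was removed in each sample, the median log2 fold change of the members was 0.0024 and that of all genes 0.020. Then 16 members were higher and 14 lower, against 12 and 18 before, and the treated samples lay below the saline samples for 9 members (27.2% of all genes tested) and above them for 9 (27.3%). Sema3c, Sema3g and Sema5b kept log2 fold changes of 2.73, 1.31 and -3.00. The value of Nrp2 went to -0.022, of Sema5a to -0.19 and of Plxnb1 to -0.18, and that of Plxna1 to 0.0022. Of the 8 members at an unadjusted p under 0.05, only Sema3c, Sema3g and Sema5b were so after the removal, joined by Plxna2 and Sema4f.

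**Figure D4:**
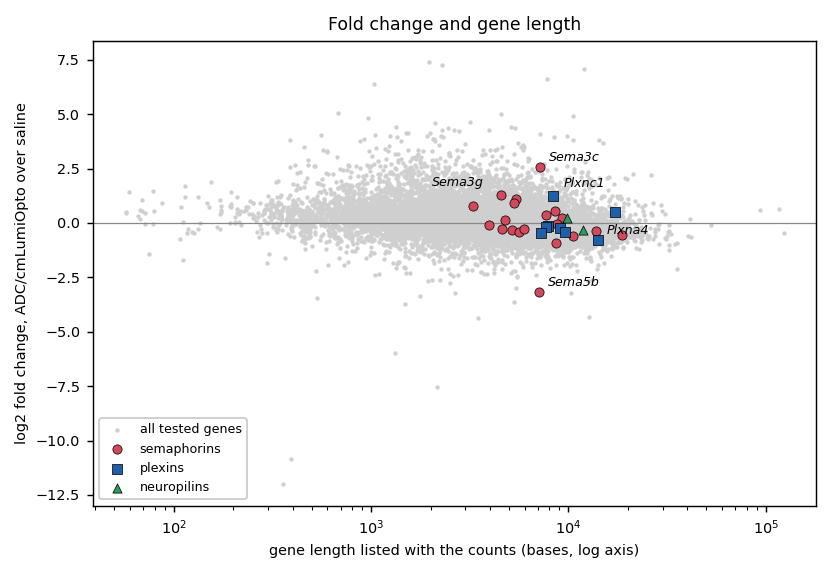
Log2 fold change of ADC/cmLumiOpto over saline against gene length in bases (log axis) for the 15320 genes tested, in grey, with the members in color. Most members lie among the longer genes, where fold changes were lower on the whole, and Sema3c and Sema5b lie outside the cloud of the other members.

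Genes that work with these receptors were read from a list of 53 coreceptors and intracellular effectors, of which 52 were tested. The edgeR QL test gave 0 of them an adjusted p under 0.05. At an unadjusted p under 0.05, 12 were lower (12.2% of all genes tested) and 4 higher (11.0%) after treatment. The exact test of edgeR called 8 of them, in either direction, where it called 3.96% of all genes higher and 3.68% lower. The median log2 fold change of the list was -0.21, with 33 genes lower and 19 higher, and with the length trend removed 28 were lower and 24 higher. Mical2, an actin-oxidizing enzyme of the family that acts below plexins, had 94.3 and 94.4 CPM with saline and 42.3 and 47.3 CPM after treatment. Its log2 fold change was -1.07 (SE 0.16, edgeR QL adjusted p 0.116). Arhgap35, a GTPase-activating protein, had 184 and 190 CPM against 107 and 106 CPM. Farp1, a guanine exchange factor that binds A-type plexins, had 125 and 150.04 CPM against 59.5 and 77.9 CPM. For these genes the groups were well apart, and their log2 fold changes were -0.81 and -1.0 (edgeR QL adjusted p 0.116 each). The log2 fold changes of single partners are given without removal of the length trend. Mical2, Arhgap35 and Farp1 have listed lengths of 15218, 9147 and 5524 bases, against a median of 4113 bases for all genes tested.

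Trem2 and Tyrobp, a receptor and its signaling adaptor on myeloid cells that can associate with Plxna1, were on the other side. Trem2 had 35.2 and 25.01 CPM with saline and 66.2 and 59.0 CPM after treatment, and Tyrobp had 73.1 and 60.6 CPM against 127 and 147 CPM. Both were higher in both treated samples, with log2 fold changes of 1.06 and 1.04 (edgeR QL adjusted p 0.116 each). So were 5 of the 9 leukocyte markers tested (28.1% of all genes tested). The others, Laptm5, Cd3e, Itgam and Csf1r, overlapped between the groups, with log2 fold changes of 0.20, 0.67, 0.15 and -0.042. The part of leukocytes in the values of Trem2 and Tyrobp was not tested. Their listed lengths were 4946 and 667 bases, and the part of length in these values was not tested either. Ptk7, a membrane pseudokinase, had 188 and 199 CPM with saline and 128 and 118 CPM after treatment, a log2 fold change of -0.65 (SE 0.16). Limk2, a kinase that acts on cofilin, and Erbb2, a partner of Plxnb1, had the largest p of the list, with log2 fold changes of -0.031 and -0.046. Limk2 had 48.9 and 43.7 CPM with saline and 42.2 and 48.4 CPM after treatment. Erbb2 had 87.5 and 51.4 CPM against 69.9 and 64.6 CPM, and both genes overlapped between the groups. Dpysl4 had 0 counts in every sample and was not tested.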

How the data were processed

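Messenger RNA of 2 saline and 2 ADC/cmLumiOpto samples was sequenced on an Illumina HiSeq instrument. The authors aligned the reads with HISAT2 and deposited raw counts of reads per gene, as whole numbers, with gene name, position and length. The counting program and the use of strand were not given in the sources used here, so reads of overlapping antisense genes, such as Plxna4os1 in Plxna4, cannot be told apart. The study's methods name GRCm38 and the submitters' processing notes mm39. Of the 31 members, 0 had the listed start and end in GENCODE M21 (GRCm38), so positions of genes are not printed. Promoter windows are from RefSeq (GRCm38.p6).

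Tests were run on these counts in edgeR 4.0.16 (R 4.3.3), with filterByExpr (minimum count 10, minimum total 15), TMM (factors 0.973 to 1.04), glmQLFit and glmQLFTest over all genes. The threshold was 0.05 on the Benjamini-Hochberg adjusted p. The standard error is the log2 fold change divided by the square root of F. Alternatives were the edgeR exact test, DESeq2 1.42.0, other scalings, no filter, protein-coding genes only, a replicate block, removal of the length trend (lowess span 0.3, through offsets) and each sample left out. The edgeR QL test, the edgeR exact test and DESeq2 were also run on simulated counts, with a common dispersion for all genes and no length trend. Such counts check the code and not how these tests behave on the present samples. The study's methods describe biological samples from mice, 4 in each group, of which 2 and 2 were analysed here, and the labels tie no sample to an animal, so p-values measure the spread between these samples. With 2 samples in each group, an exact permutation test cannot reach the threshold. Values in every sample are given for neuropilins, for plexins and for semaphorins at an unadjusted p under 0.05, and for the 6 partners with the smallest and 2 with the largest p. The examples of the other semaphorins, Sema3f, Sema4a, Sema6b and Sema7a, were chosen after their values were seen. The members, the partner list and the marker lists were chosen with earlier results of these data known.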

Additional observations from a re-analysis of the deposited data

How the results depend on the processing

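The count of all genes past the 0.05 threshold, 0 in the edgeR QL test (3553 at an unadjusted p under 0.05), was 1170 in the exact test, 1332 in DESeq2, 2259 without the filter, 607 with the replicate block and 2 with the length trend removed and the block. For the members these counts were 0, 3, 2, 6, 1 and 0, and for the partners 0, 8, 11, 13, 6 and 0. Without the filter the members called were Plxnc1, Sema3c, Sema3g, Sema4a, Sema5b and Sema7a. With each sample left out in turn, 0 to 206 of all genes, 0 to 2 members and 0 partners were called, the highest counts without saline replicate 1, where Sema3c and Plxnc1 were called. The 8 members at an unadjusted p under 0.05 were 5 without TMM and 5 with the length trend removed. The median log2 fold change of the members was 0.0024 with the length trend removed, 0.0039 with the block as well, and -0.24 (without saline replicate 2) to -0.052 (without ADC/cmLumiOpto replicate 1) with each sample left out. With the length trend removed, Plxna1, Plxna3 and Plxnb2 turned to 0.0022, 0.074 and 0.0026, and to 0.0053, 0.060 and 0.0025 with the block. Plxna3 was -0.30 without ADC/cmLumiOpto replicate 1 and 0.033 without replicate 2. The cause was not tested. The other plexins, the neuropilins, Sema3c, Sema3g, Sema4b, Sema5a, Sema5b and Sema6d kept their direction under every alternative run. Equal replicate numbers do not stand for shared animals, the deviations of same-numbered samples had Pearson's r of 0.099 across genes, and with the block Sema3c had an adjusted p of 0.0191 in edgeR. Depth limits Sema5b and Plxnb3, at 3 counts or fewer in at least 1 sample.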
